A study of Oryza sativa with 25 samples.

Results

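The transcripts shared by all callus stages are 200 probe sets of the Affymetrix Rice Genome Array, out of 57194 that are not controls, and they were chosen by their measured intensities. A probe set is a group of short probes whose signals were combined into 1 value for a transcript. Each was scored by its lowest mean log2 intensity among 5 callus groups minus its highest mean among root, shoot and young leaf, and the 200 highest scores were kept. Probe sets of alpha-amylase, nonsymbiotic hemoglobin, OsTIP3 and OsTDL1B genes were left out first, and 10 of them would have ranked above the last member.

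The arrays measured RNA of Oryza sativa, and the cultivar is not given in the sources used here. Growing callus had been started from seeds and kept on MS medium for 3 weeks at 30 °C. Regenerating callus was such callus after 2, 4, 6 or 8 days on regeneration medium. Whole roots and young leaves were taken from greenhouse plants at the stage of leaf 4, and shoots from plants held for 4 weeks in a growth chamber at 30 °C. There were 3 arrays for each group and 4 for young leaf. The labels call the replicates biological without saying what was grown separately, so p-values measure the spread between these samples only. Callus without regeneration medium was not sampled at matching times. In comparisons with growing callus the medium, the transfer and culture age therefore cannot be told apart, nor can organ and growth place for shoot.

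Callus is a mass of dividing cells that forms when plant tissue is wounded or grown with auxin, and rice callus is commonly raised from the scutellum of the seed embryo. Seed maturation in plants is run by transcription factors of the B3 family together with abscisic acid, and it ends with late-embryogenesis proteins that protect cells as they dry. SEPALLATA-type MADS-box factors are known for specifying floral organs in the grasses.

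Levels below are deposited intensities, on a linear scale in which the 75th percentile of every array is 1. Correlations between replicate arrays ran from 0.964 to 0.989. Leaf and root marker genes were low in growing callus. The chlorophyll-binding protein gene CAB2R had geometric mean levels of 0.159 in growing callus and 132 in young leaf, and the silicon transporter gene Lsi2 had 0.139 in growing callus and 33.1 in root. The 4 root marker probe sets had median levels of 0.313 in growing callus, 19.2 in root and 3.19 in young leaf. Of these, 2 were called higher in root than in young leaf and 1 lower, where 16.6% and 15.5% of all probe sets tested were. During regeneration 7 of the 12 leaf marker probe sets tested were called higher than growing callus at 6 days and 7 at 8 days, with 0 lower and median log2 changes of 1.22 and 1.36. Among all probe sets tested 3.71% were higher and 2.38% lower at 6 days, and 5.06% and 2.79% at 8 days. The median level over the 14 leaf marker probe sets was 0.678 at 8 days, against 12.9 in young leaf, and the part of this shift in the members' changes was not tested. RNA came from whole tissue, so fewer cells of a type and less RNA per cell cannot be told apart.

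Several callus arrays stood apart within these 200 probe sets. Growing callus replicate 3 lay under 50% of both other replicates for 42 members (21%), against 0.825% of all 37212 probe sets tested. Replicate 2 did so for 29 members at 2 days, for 36 at 6 days and for 22 at 8 days. Over all probe sets tested the shares were 0.438%, 0.618% and 1.79%, so 8 day replicate 2 also stood apart more often outside the members. Growing callus replicate 1 lay above 2 times both others for 29 members, against 0.761% of all tested. An excess of poly(A) control RNA is noted in the labels for replicate 2 at 2 days, at 4 days and in growing callus, but not at 6 or 8 days. In root, replicate 2 lay above 2 times both others for 13 members, against 0.263% of all probe sets tested.

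By the rule, the distance from callus to the nearest organ ran from 2.03 to 6.86 on the log2 scale, with a median of 2.92, or 7.59-fold. These distances chose the members and were not tested. Over all 57194 probe sets the median score was -0.71, and 703 (1.23%) scored above 1. In 195 of the 200 members every callus array lay above every organ array, which held for 2643 probe sets (4.62%) overall. The 5 exceptions were both probe sets of RAB21, RAB16B, LOC4352184 and 1 probe set with no gene. The 5 members of lowest score, LOC4339137, LOC4341702, LOC4339753 and 2 probe sets with no gene, lay between 2.03 and 2.05, and the 5 just outside between 2.018 and 2.026. OsGLN1;3, a glutamine synthetase gene, was the first of those outside.

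**Figure D1:**
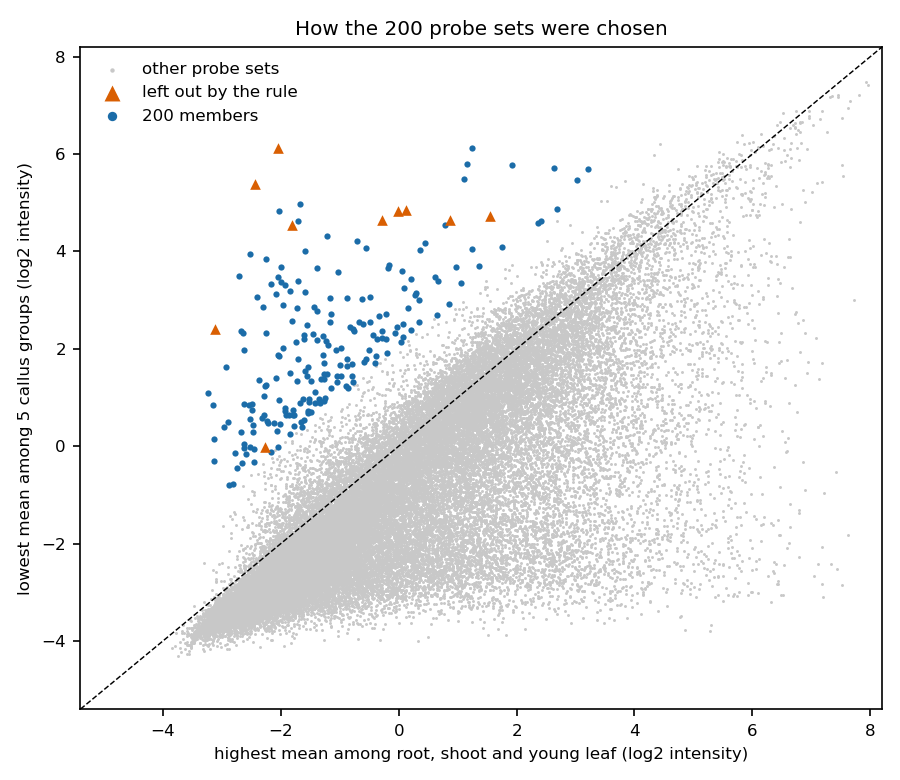
Each point is a probe set, placed by its highest mean among the 3 organs (x axis, log2 intensity) and its lowest mean among the 5 callus groups (y axis, log2 intensity), with equality on the dashed line. The 200 members lie at least 2.03 above that line, and triangles mark the 10 probe sets left out by the rule.

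The platform annotation gave 1 gene to 137 members, several genes to 1 and none to 62. Those 137 probe sets covered 131 genes, and 22 of the genes are known by more than a locus number. For 39 members the identifier ends in _s_at or _x_at, a type that can also detect related transcripts. No organ array lay above its own median for 62 members, while every organ array did for 16. The rule itself favours low organ levels, and these counts were not made over all probe sets. The highest organ was root for 134 members, shoot for 47 and young leaf for 19. Over all probe sets it was root for 57.3%, shoot for 17.8% and young leaf for 25.0%.

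The highest score belonged to OsMADS1 (LOC4332059), a SEPALLATA-type MADS-box factor that specifies floral meristems and the lemma and palea of the rice floret. Its levels were 36.9, 37.4 and 28.3 in growing callus and 43.1, 55.1 and 38.1 at 2 days. They were 32.8, 52.0 and 40.8 at 4 days, 27.2, 25.0 and 33.7 at 6 days, and 32.6, 32.7 and 34.9 at 8 days. In the organs its 10 values ran from 0.119 to 0.284. No callus array was near any organ array. Within callus the 2 day arrays lay above all of growing callus, 6 days and 8 days, and the other callus groups overlapped in part. It was called at none of the 4 times, the log2 change at 8 days being 0.17 (SE 0.17, adjusted p = 0.53).

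OsMADS5 (LOC4340218), a second SEPALLATA-type factor, stood at 5.88 ± 2.04 in growing callus (SD, n = 3), and then at 7.36 ± 1.87, 7.79 ± 0.198, 5.76 ± 2.13 and 5.03 ± 0.506 at 2, 4, 6 and 8 days. The organ means ran from 0.121 in shoot to 0.182 in root. It too was not called at any time, with a log2 change of 0.53 (SE 0.26, adjusted p = 0.19) at 4 days. In a list of MADS-box genes made after the values were seen, these 2 were the members among 39 probe sets of 31 genes. For the other 37 probe sets, the highest group mean in callus had a median of 0.204, and the largest was that of OsMADS22 in growing callus at 12.6, which shoot exceeded at 16.

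Both B3-type regulators of seed maturation among the named members were called at no time, and their callus group means lay within 2-fold of each other. OsVP1 (LOC4324314), the rice counterpart of maize Viviparous1 in abscisic acid signalling, stood at 12.0, 22.6 and 15.5 in growing callus and at 12.7, 15.6 and 20.5 at 8 days, with organ values from 0.123 to 0.338. Its largest change was at 4 days (log2 0.72, SE 0.21, adjusted p = 0.025), under the 2-fold minimum for a call. OsLFL1 (LOC4325939), a B3 factor related to LEC2 and FUSCA3 of Arabidopsis, stood at 1.86, 3.67 and 3.32 in growing callus and at 1.31, 2.81 and 2.57 at 8 days, with organ values from 0.0499 to 0.109. Its log2 change at 8 days was -0.36 (SE 0.27, adjusted p = 0.39).

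OsMEL1 (LOC4334449), an Argonaute protein known from rice germ cells, stood at 13.6 ± 4.78 in growing callus and 8.29 ± 0.905 at 8 days, and was not called at any time (log2 -0.53 at 8 days, SE 0.21, adjusted p = 0.074). Among organs it was highest in shoot at 0.417 ± 0.0140 (SD, n = 3), against 0.214 ± 0.0318 in young leaf (SD, n = 4). That difference was called (log2 1.03, SE 0.19, adjusted p = 7.0e-05), though it fell under 2-fold without young leaf replicate 1 or replicate 3, the latter giving a log2 difference of 0.93.

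OsJAG (LOC9269702), a zinc-finger factor of lateral organ growth, was the named transcription factor called within callus. It fell during regeneration. Its levels were 3.98, 6.07 and 5.11 in growing callus, 3.69, 3.37 and 4.03 at 2 days, 2.02, 2.33 and 2.96 at 6 days, and 1.16, 2.77 and 1.77 at 8 days. All arrays at 6 and 8 days lay below all 3 of growing callus. The log2 change at 8 days was -1.40 (SE 0.22, adjusted p = 7.6e-05), and the change per day over 2 to 8 days was -0.18 (SE 0.04, adjusted p = 0.00084). Without 8 day replicate 1 the change per day was -0.13 and no longer reached 2-fold over the 6 days. At its lowest it was still far above the organs, whose values ran from 0.0986 to 0.165.

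**Figure D2:**
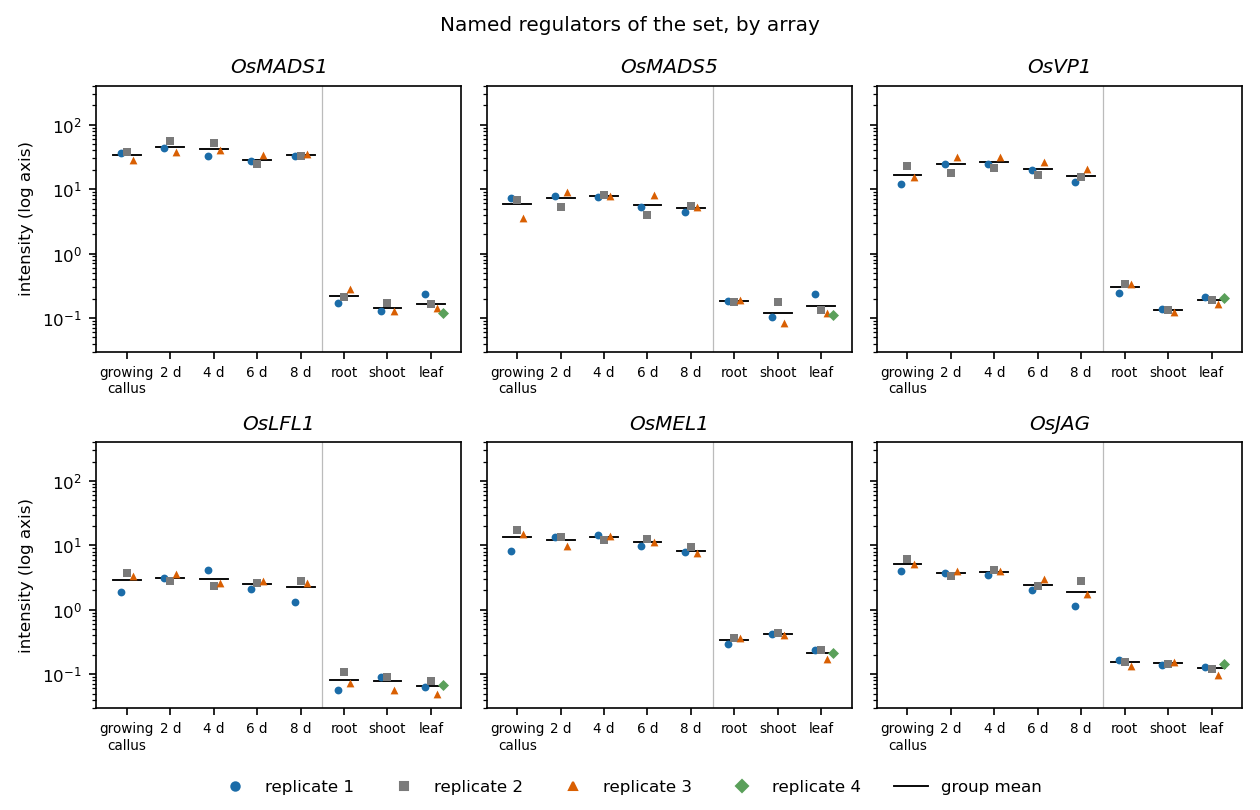
Intensity (y axis, log scale) of 6 named regulators in every array of the 8 groups (x axis), with a symbol for each replicate number and a line at each group mean. The callus group means of OsMADS1, OsMADS5, OsVP1, OsLFL1 and OsMEL1 lie within 2-fold, OsJAG fell from 5.06 to 1.90, and no callus value of any panel reaches the organ values.

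A further group of members encodes late-embryogenesis and dehydrin proteins. EM (LOC4338499), an abundant hydrophilic protein of mature seeds, was at 66.1, 28.4 and 1.05 in growing callus. It was at 82.5, 58.9 and 68.7 at 2 days, 112, 105 and 76.7 at 4 days, 111, 52.0 and 119 at 6 days, and 154, 78.5 and 147 at 8 days, while organ values ran from 0.159 to 0.647. Growing callus replicate 3 stood apart from both other replicates, and all arrays at 8 days lay above all of growing callus. EM was called higher at every time, with a log2 change of 3.34 (SE 0.81, adjusted p = 0.0045) at 8 days. Without growing callus replicate 3 the change at 8 days was 1.60 and still called, that at 6 days was 1.24 and still called, and those at 2 and 4 days (0.80 and 1.17) were not. Without growing callus replicate 1 the change at 8 days was 4.55. The call at 2 days also ended without any of the 2 day replicates, that at 4 days without 4 day replicate 1, and that at 6 days without 6 day replicate 1 or 3 (adjusted p from 0.0501 to 0.129).

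RAB21 (LOC4350454), a dehydrin gene responsive to abscisic acid, had 2 member probe sets, and the first stood at 92.3, 21.7 and 0.982 in growing callus and 208, 86.2 and 216 at 8 days. Its log2 change at 8 days was 3.79 (SE 1.09, adjusted p = 0.015), or 2.00 (adjusted p = 0.14) without growing callus replicate 3, and 3.60 (adjusted p = 0.054) without 8 day replicate 3. The second probe set gave 3.82 (SE 1.06, adjusted p = 0.012), or 2.11 (adjusted p = 0.11) without growing callus replicate 3. Without growing callus replicate 1 the 2 probe sets gave 5.24 and 5.39. In root it stood at 0.296, 6.05 and 0.322, so root replicate 2 was above growing callus replicate 3. RAB16B (LOC4350453), a related dehydrin, stood at 46.0, 10 and 1.23 in growing callus and 125, 49.5 and 117 at 8 days. Its log2 change was 3.49 (SE 0.90, adjusted p = 0.0071), or 2.15 (adjusted p = 0.071) without growing callus replicate 3 and 4.72 without replicate 1. In both genes the replicates of growing callus spread over a wider range than the change itself.

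RAB16D, RAB16C, RAB16B and RAB21 are consecutive protein-coding genes in RefSeq assembly ASM3414082v1, in that order, yet only RAB16B and RAB21 passed the rule. In growing callus the geometric mean was 0.291 for RAB16D and 0.246 for RAB16C, below the highest organ in both (1.14 in root and 1.32 in young leaf). At 8 days RAB16D stood at 40.8, 1.52 and 39.2 and RAB16C at 27.9, 0.679 and 29, with replicate 2 apart in both. The highest organ array of each was root replicate 2, at 2.4.

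OsLEA19 (LOC4339480), a late-embryogenesis protein gene, rose at 8 days from 23.0 ± 17.9 to 72.0 ± 29.7 (SD, n = 3 each), with a log2 change of 1.97 (SE 0.64, adjusted p = 0.031) that was 1.29 (adjusted p = 0.20) without growing callus replicate 3. That call also ended without growing callus replicate 2, 8 day replicate 1 or 8 day replicate 3 (adjusted p = 0.066, 0.11 and 0.10). Its root values of 0.515, 6.04 and 0.727 set replicate 2 apart once more. The rab25 gene (LOC4326935) was called higher at every time and stood at 49.0, 19.7 and 2.37 in growing callus and 98.1, 54.8 and 96.8 at 8 days. Its log2 change at 8 days was 2.70 (SE 0.63, adjusted p = 0.0033), or 1.49 and still called without growing callus replicate 3, and 3.65 without replicate 1. Its calls at 2, 4 and 6 days ended without growing callus replicate 3 and without replicate 1 of the same day, and those at 2 and 6 days also without replicate 3 of the same day. LTP-2 (LOC4331362), a lipid transfer protein gene, rose from 11.8, 2.60 and 1.32 to 33.2, 10.3 and 37.8 at 8 days (log2 2.85, SE 0.65, adjusted p = 0.0025, or 2.18 without growing callus replicate 3 and 3.76 without replicate 1). Its calls at 4 and 6 days (adjusted p = 0.049 and 0.048) each ended without any of 4 arrays, growing callus replicates 2 and 3 among them. The arrays of LTP-2 overlapped, 8 day replicate 2 lying below growing callus replicate 1.

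**Figure D3:**
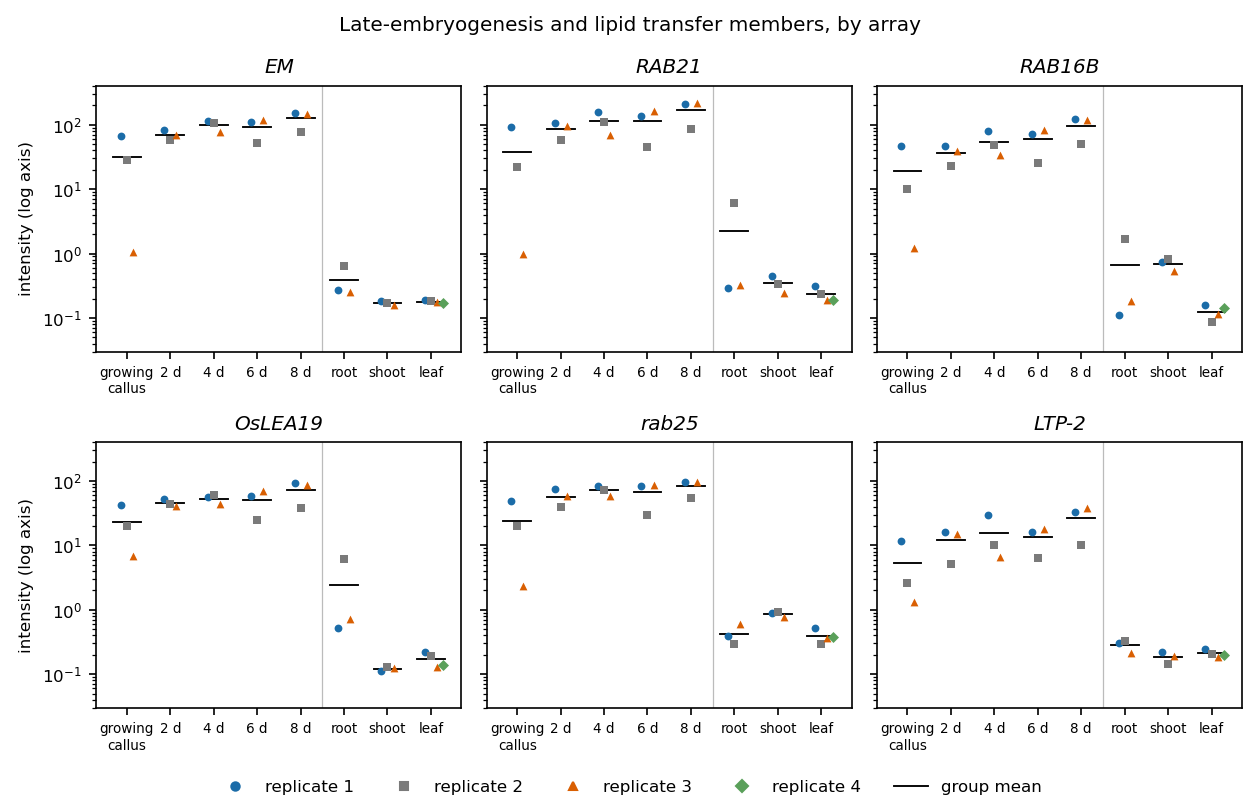
Intensity (y axis, log scale) of EM, RAB21, RAB16B, OsLEA19, rab25 and LTP-2 in every array of the 8 groups (x axis), with a symbol for each replicate number and a line at each group mean. Growing callus replicate 3 is the lowest callus array in every panel, for EM at 1.05 against 66.1 and 28.4.

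Seed storage protein genes were low in every group of callus. A list of seed storage and late-embryogenesis names matched 27 probe sets of 18 genes, and 5 of them, of EM, OsLEA19, RAB16B and RAB21, were members. The pattern also took in OsMADS3 and OsEME1, which are no seed proteins. For the 15 probe sets of 9 glutelin, prolamin and seed allergen genes, the highest callus group mean had a median of 0.201 and did not pass 0.666, where the 75th percentile of an array is 1. At 8 days 7 of the 17 list probe sets tested were higher than in growing callus and 1 was lower, where 5.06% of all probe sets tested were higher and 2.79% lower. Without growing callus replicate 3 there were 3 higher, and without 8 day replicate 2 there were 0 lower. The median log2 change of the list was 0.10, against -0.05 over all probe sets tested.

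Protein breakdown and its inhibitors were represented by a pair of named genes. OsSAG12 (LOC4324982), a cysteine protease gene also listed as REP1, dipped and recovered. It stood at 27.5, 22.3 and 33.0 in growing callus, 5.84, 4.02 and 3.19 at 2 days, 3.41, 3.93 and 5.77 at 4 days, 8.45, 22.1 and 31.7 at 6 days, and 53.8, 33.3 and 46.8 at 8 days. The arrays at 2 and 4 days did not overlap with those of growing callus, and those at 8 days lay above all of them. The log2 change was -2.62 (SE 0.32, adjusted p = 1.1e-05) at 2 days and -2.61 (adjusted p = 7.5e-06) at 4 days, and the change per day over 2 to 8 days was 0.63 (SE 0.05, adjusted p = 1.6e-08). At 8 days it was 0.83 above growing callus (adjusted p = 0.069), which was not called. OC-IV (LOC4324351), a cystatin that inhibits cysteine proteases, showed no called change in callus. It stood at 3.63, 1.88 and 4.45 in growing callus and 5.96, 4.04 and 4.37 at 8 days (log2 0.67, adjusted p = 0.15). It was higher in root, at 0.526 ± 0.123, than in young leaf, at 0.102 ± 0.0460 (log2 1.99, SE 0.30, adjusted p = 4.4e-06).

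SAUR39 and GRXC3 were both called lower at 2, 4 and 6 days. SAUR39 (LOC9271092), a small auxin-responsive gene known to restrain auxin synthesis and transport in rice, stood at 5.71, 7.59 and 5.61 in growing callus and at 2.46, 2.71 and 1.83 at 2 days, with no overlap. It was called lower at 2, 4 and 6 days (log2 -1.61, SE 0.26, adjusted p = 0.00014 at 6 days). At 8 days it stood at 4.37, 2.32 and 4.44 (log2 -0.73, adjusted p = 0.051). GRXC3 (LOC4329462), a glutaredoxin gene also listed as ROXY2, fell throughout, from 21, 33.0 and 33.4 to 12.1, 9.86 and 13.1 at 2 days and to 3.13, 7.54 and 4.47 at 8 days. Its log2 change was -1.24 (SE 0.31, adjusted p = 0.011) at 2 days and -2.47 (adjusted p = 4.6e-06) at 8 days. Its calls at 2 and 4 days ended without growing callus replicate 3 (adjusted p = 0.057 and 0.062). OsCYP85A1 (LOC4333399), a brassinosteroid oxidase gene, had log2 changes from -0.86 to -0.74 across the 4 times, each under 2-fold, with levels of 17.0 ± 4.67 in growing callus and 9.12 ± 0.593 at 8 days.

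Among metabolic and transport genes, KPHMT1 (LOC4326739), a ketopantoate hydroxymethyltransferase gene of pantothenate synthesis, rose from 5.76, 7.82 and 4.13 in growing callus to 11.4, 11.4 and 12.0 at 4 days and 9.46, 10.1 and 16 at 8 days. All of those later values lay above growing callus, with log2 changes of 1.09, 1.28 and 1.11 at 4, 6 and 8 days (adjusted p = 0.0011, 0.00016 and 0.00050). Those at 4 and 8 days were 0.85 and 0.87, under 2-fold, without growing callus replicate 3, and without 8 day replicate 3 the latter was 0.90. OsSWEET1b (LOC4338851), of the SWEET family of sugar transporters, stood at 33.8, 11.7 and 5.85 in growing callus and 18.5, 16.6 and 26 at 8 days, and was called at no time. In the organs it was highest in young leaf, at 1.24, 1.51, 1.61 and 1.69, against 0.299 ± 0.0397 in root (log2 -2.58 for root against young leaf, SE 0.49, adjusted p = 7.2e-05).

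R1C-Prx (LOC4344045) was at 41.6, 20.8 and 15.9 in growing callus and 79.0, 44.2 and 70.6 at 8 days (log2 1.49, SE 0.41, adjusted p = 0.010). Its call at 8 days ended without growing callus replicate 3 (log2 1.20, adjusted p = 0.069) and without 8 day replicate 1 (log2 1.35, adjusted p = 0.050). Among the organs it was highest in root, at 5.83, 4.33 and 5.28, against 0.140 ± 0.0195 in shoot (log2 4.86, SE 0.41, adjusted p = 6.1e-10). OsCASPL2B1 (LOC4352337), of a family related to Casparian strip membrane proteins, rose by 0.22 per day (SE 0.05, adjusted p = 0.0014) from 5.28 ± 2.30 at 2 days to 11.6 ± 2.22 at 8 days. OsADF10 (LOC4349142), an actin-depolymerizing factor gene, was at 3.02 ± 1.73 in growing callus and 3.56 ± 0.966 at 8 days, with no call within callus.

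Most of the highest-ranking members have a locus number, several genes or no gene, and no role is given to them here. LOC4346728, LOC4331947 and LOC4324064 stood at 37.5, 24.3 and 4.07, at 33.2, 15.9 and 3.93, and at 54.7, 17.5 and 1.41 in growing callus, so replicate 3 was again the lowest. All 3 were called higher at 8 days, by 1.82 for LOC4346728, 1.83 for LOC4331947 and 2.86 for LOC4324064 on the log2 scale. Without growing callus replicate 3 the changes were 0.87 (adjusted p = 0.15), 0.99 (adjusted p = 0.16) and 1.41 (adjusted p = 0.047), and without replicate 1 they were 2.47, 2.53 and 4.01. The calls of LOC4346728 and LOC4331947 also ended without 8 day replicate 1 or 3.

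LOC4331398 was read by 2 member probe sets that moved together. The first stood at 15.2, 21.7 and 6.01 in growing callus, 7.59, 11.2 and 16.7 at 2 days, 25.4, 28.3 and 36.2 at 4 days and 32.6, 46.9 and 29.3 at 8 days, so the groups overlapped at 2 days and not later. Its log2 changes were -0.10, 1.28, 1.67 and 1.66 at 2, 4, 6 and 8 days, and the second probe set gave -0.13, 1.36, 1.73 and 1.71. At 4 days the calls of both ended without growing callus replicate 3 (log2 0.76 and 0.78).

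Of the first 10 ranks, the probe set of rank 2 was given several genes and those of ranks 4 and 9 none. The probe set of rank 2 stood at 56.2, 51.8 and 10.7 in growing callus and 55.1, 68.9 and 73.7 at 8 days (log2 1.25, adjusted p = 0.036), a call that ended without growing callus replicate 3 (log2 0.48, adjusted p = 0.31) and without any of the 8 day replicates. That of rank 9 rose by 1.99 (adjusted p = 0.031) at 8 days, or by 0.75 (adjusted p = 0.28) without growing callus replicate 3 and 2.98 without replicate 1, and its call also ended without 8 day replicate 1 or 3. That of rank 4 stood at 46.8 ± 8.91 in growing callus and 25.6 ± 7.73 at 8 days (log2 -0.70, adjusted p = 0.031), under 2-fold.

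Of the 131 member genes, 14 lay within 100 kb of another in ASM3414082v1, in 8 pairs. How many pairs an equal number of other genes on the array would give was not counted. The number therefore does not show that members cluster. LOC4344615, LOC4344618 and LOC4344619 lie together, with 1 protein-coding gene between the first and second and 0 between the others. LOC4344619 stood at 83.1, 96.6 and 98.8 in growing callus and fell to 15.3, 21 and 9.33 at 8 days (log2 -2.59, SE 0.30, adjusted p = 1.4e-06). LOC4344618 stood at 75.1, 80.8 and 93.7 and then at 9.40, 16.5 and 3.64 (log2 -3.22, adjusted p = 3.9e-05, or -2.61 without 8 day replicate 3). LOC4344615 stood at 69.6, 75.6 and 94.2 and then at 13.0, 16.3 and 10.5 (log2 -2.50, adjusted p = 4.1e-05). For all 3 genes every array of growing callus lay above every array at 8 days. LOC4342352 and LOC4342354, with 1 gene between them, also fell together at 8 days (log2 -1.36 and -1.41, adjusted p = 0.0043 and 0.0046).

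The other neighbours were mostly not called in callus. LOC4350579 and LOC4350580 were adjacent and not called at any time, and each was higher in root than in shoot (log2 1.13 and 1.18, adjusted p = 1.0e-05 and 0.00014). Both fell under 2-fold without root replicate 3. LOC4328397, LOC4328398 and LOC9266559 were not called in callus either. LOC4331714 and LOC4331723, with 6 genes between them, had different values at 8 days. LOC4331723 fell by 1.10 (adjusted p = 0.021), a call that ended without growing callus replicate 2 (-0.91, adjusted p = 0.10) or 8 day replicate 1 (-0.57, adjusted p = 0.20). The 2 probe sets of LOC4331714 had log2 changes of 0.09 and -0.06.

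Within callus the members were called more often than probe sets in general, although the rule favours members that are high in all 5 callus groups. A call required a limma adjusted p under 0.05 and at least 2-fold, and all 200 members passed the filter on low values. At 2 days 22 members (11%) were higher than growing callus and 11 lower, where 4.08% of all 37212 probe sets tested were called (1.65% higher and 2.43% lower). At 4 days 50 were higher and 10 lower, against 5.25% (2.14% and 3.1%). At 6 days 46 were higher and 18 lower, against 6.09% (3.71% and 2.38%). At 8 days 55 were higher and 36 lower, against 7.85% (5.06% and 2.79%), so that 45.5% of members were called by then. Members also had higher intensities than other probe sets, with a median callus level of 6.77 against 0.560 over all tested, and the part of that difference in the counts was not tested.

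Growing callus replicate 3 moved with the higher counts, and its part in them beyond the following values was not tested. Without it 6, 21, 26 and 39 members were higher at 2, 4, 6 and 8 days and 9, 9, 16 and 36 were lower, so that at 2 days the lower calls outnumbered the higher. Of the higher calls 5, 21, 26 and 37 were among those made with all arrays. Other arrays also moved counts by over 1.5 times. At 2 days 38 members were higher without growing callus replicate 1, 11 without 2 day replicate 1 and 10 without 2 day replicate 3, and 7 were lower without the latter. At 4 days 27 were higher without 4 day replicate 1, and at 6 days 27 without 6 day replicate 3. The falls at 8 days held between 27 and 41 over all arrays left out in turn. Shares over all probe sets tested were not counted with arrays left out.

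**Figure D4:**
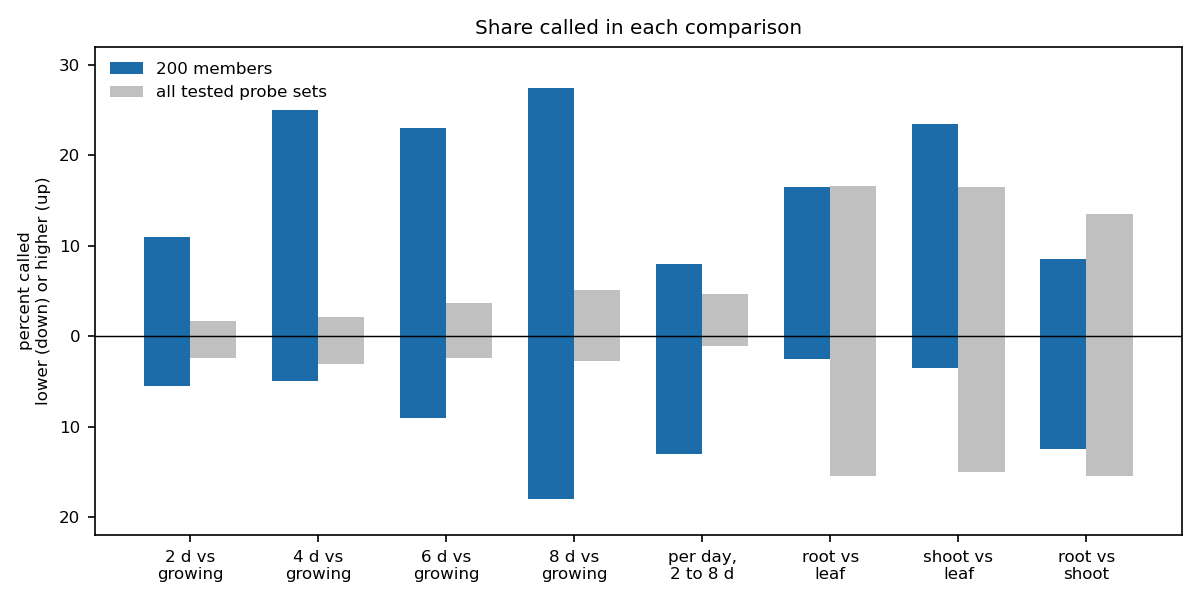
Percent of the 200 members (blue) and of all 37212 probe sets tested (grey) called higher (bars up) or lower (bars down) in each of 8 comparisons (x axis). At 8 days 27.5% of members were higher and 18% lower, against 5.06% and 2.79%, while for root against young leaf 16.5% were higher, against 16.6%.

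By pattern, 61 members were higher than growing callus at 1 or more times and lower at none, 41 were lower at 1 or more and higher at none, and 0 went both ways. These are 30.5%, 20.5% and 0% of members, against 6.11%, 4.56% and 0.0564% of all probe sets tested. At no time were 98 called (49%, against 89.3% of all probe sets tested). Of these, 87 (43.5% of members, against 87.6% of all tested) also had no called change per day, among them OsMADS1, OsMADS5, OsVP1, OsLFL1 and OsMEL1. The 17 called higher at all 4 times included EM and rab25, and the 6 called lower at all 4 times were GRXC3, LOC4344615, LOC4344618, LOC4342393, LOC4343482 and 1 probe set with no gene. The 2 day call of LOC4342393 ended without 2 day replicate 1 (adjusted p = 0.056), and that of LOC4344618 without any array of growing callus or without 2 day replicate 1 or 3 (adjusted p from 0.0504 to 0.161). The 4 day call of LOC4344618 ended without growing callus replicate 3 (adjusted p = 0.061) or 4 day replicate 1 (adjusted p = 0.054). The probe set with no gene lost its 2 day call without growing callus replicate 1, growing callus replicate 3 or 2 day replicate 3 (adjusted p = 0.069, 0.076 and 0.19), and its 6 day call without 6 day replicate 3 (adjusted p = 0.051). Over all tested probe sets 0.951% were higher and 1.14% lower at all 4 times. Between 2 and 8 days 16 members rose per day and 26 fell, where 5.81% of all were called (4.7% higher and 1.11% lower). The falls per day numbered 13, against 14 rises, without 8 day replicate 1, and 17 without 8 day replicate 3.

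LOC9266106 had the largest fitted rise of the 200 at 8 days. It stood at 2.35, 0.569 and 0.328 in growing callus, 17.3, 7.08 and 5.70 at 4 days and 35.5, 5.45 and 27.5 at 8 days, with no overlap, and its log2 change at 8 days was 4.5 (SE 0.68, adjusted p = 4.3e-05). That value was 3.91 without growing callus replicate 3, 5.28 without replicate 1 and 5.34 without 8 day replicate 2. LOC4345287 followed, from 7.09, 5.58 and 0.293 to 50.9, 20.7 and 50.7 (log2 4.08, SE 0.76, adjusted p = 0.00041, or 2.66, 4.90 and 4.67 without growing callus replicates 3, 1 and 2). The lowest growing callus values of both genes lay near the array medians of 0.220 to 0.355. There the size of a log2 change, and so this ranking, depends on the pseudocount. LOC4332597 rose at every time, from 13.8, 6.64 and 2.16 to 35.0, 32.2 and 33.5 at 8 days (log2 2.64, SE 0.47, adjusted p = 0.00025), and its arrays did not overlap between growing callus and 8 days. That change was 1.94 without growing callus replicate 3 and 3.28 without replicate 1, and the call at 2 days ended without growing callus replicate 3 (1.19, adjusted p = 0.089) or 2 day replicate 3 (1.71, adjusted p = 0.058).

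LOC4342393 had the largest fitted fall of the 200 at 8 days, from 9.02, 11.8 and 13.0 in growing callus to 0.737, 1 and 1.39. It was already at 2.80, 3.58 and 7.12 at 2 days, below all of growing callus, and at 1.54, 1.34 and 1.90 at 6 days. The log2 change at 8 days was -3.36 (SE 0.33, adjusted p = 1.8e-07). LOC4345836 fell later. It held 24.6, 22.0 and 26.6 at 2 days against 22.7, 36.2 and 31.4 in growing callus, and then 11.3, 9.19 and 12.8 at 6 days and 4.70, 12.4 and 4.78 at 8 days (log2 -2.04, SE 0.28, adjusted p = 1.4e-05).

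LOC4351732 was called higher at 2, 4 and 6 days and not at 8. It stood at 5.07, 17.3 and 4.33 in growing callus and 44.7, 72.7 and 65.7 at 2 days. It then stood at 47.3, 54.0 and 52.5 at 4 days, 30.2, 24.7 and 33.9 at 6 days, and 6.03, 24.1 and 6.47 at 8 days. The arrays at 2, 4 and 6 days all lay above growing callus and those at 8 days overlapped with it. Its log2 change was 3.07 (SE 0.41, adjusted p = 3.1e-05) at 2 days, or 3.66 without growing callus replicate 2, and it then fell by 0.41 per day (SE 0.06, adjusted p = 9.9e-05). LOC107281333 was also called higher at 2, 4 and 6 days (log2 2.66, 2.68 and 2.38, or 1.95, 1.97 and 1.67 without growing callus replicate 2), while its 8 day arrays of 4.91, 26.3 and 5.95 set replicate 2 apart as in LOC4351732. LOC4330830 dipped, from 4.60, 3.62 and 10.2 in growing callus to 1.77, 1.05 and 1.65 at 2 days (log2 -1.86, SE 0.42, adjusted p = 0.0052), and was not called against growing callus later. Its rise of 0.20 per day was no longer called without 2 day replicate 2 or 8 day replicate 1.

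**Figure D5:**
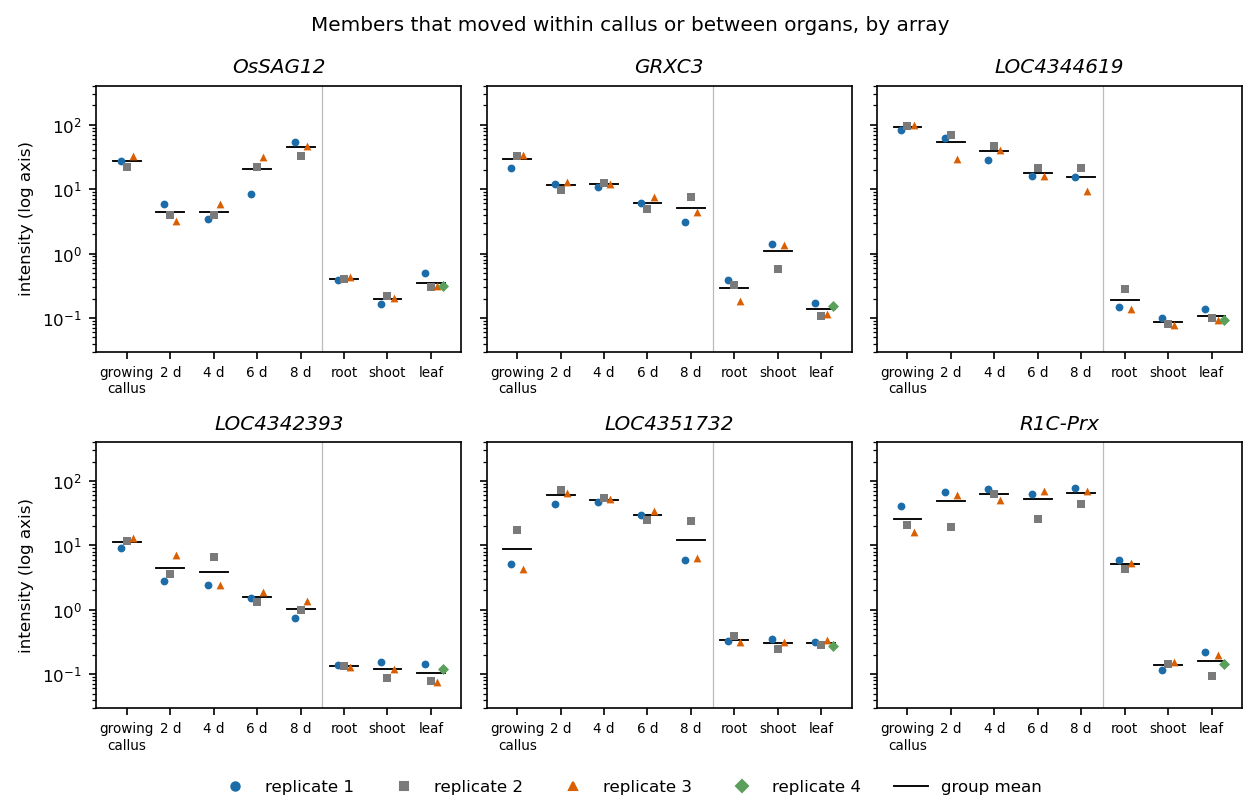
Intensity (y axis, log scale) of OsSAG12, GRXC3, LOC4344619, LOC4342393, LOC4351732 and R1C-Prx in every array of the 8 groups (x axis), with a symbol for each replicate number and a line at each group mean. OsSAG12 dips to 4.35 at 2 days and stands at 44.6 at 8 days, GRXC3, LOC4344619 and LOC4342393 fall, LOC4351732 is highest at 2 days at 61.0, and R1C-Prx separates root at 5.15 from shoot at 0.140.

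Between organs a smaller share of the members was called than of probe sets in general, and the rule had capped their organ levels. For root against young leaf 33 were higher in root and 5 lower, where 32.1% of all were called (16.6% higher and 15.5% lower). For shoot against young leaf 47 (23.5%) were higher in shoot and 7 lower, against 31.5% (16.5% and 15%). For root against shoot 17 were higher in root and 25 lower, against 29% (13.5% and 15.5%). Members called higher in young leaf were few, 2.5% against root and 3.5% against shoot. With a pseudocount of 50% of the median of all values, 11 members were higher in root than in shoot and 4 lower in shoot than in young leaf. The shares over all probe sets were not counted at that pseudocount. The median organ level of the members was 0.216, in a range where a log2 difference depends on the pseudocount.

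The members called higher in shoot include LOC4349600, whose probe set of rank 89 stood at 6.61, 6.36 and 5.58 in shoot against 0.365 ± 0.0714 in root (log2 -4.44 for root against shoot, SE 0.20, adjusted p = 1.9e-14). In callus the same probe set stood between 38.8 and 120. LOC4351314 stood at 3.27, 2.08 and 1.87 in shoot and between 0.214 and 0.242 in root (log2 -3.66, SE 0.18, adjusted p = 6.1e-14). LOC4324254 stood at 7.91, 7.91 and 4.27 in shoot and 0.389, 1.51 and 0.568 in root (log2 -3.41, adjusted p = 1.3e-05, or -4.07 without root replicate 2). For each of these 3 genes shoot lay above every root and young leaf array.

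In both root and shoot the probe set of rank 142, of LOC4352571, stood above young leaf, by 4.49 (SE 0.23, adjusted p = 3.3e-14) and 3.75 (SE 0.23, adjusted p = 1.1e-12) on the log2 scale. Its levels were 8.00, 10.6 and 9.23 in root, 8.31, 3.23 and 4.78 in shoot and 0.344 to 0.452 in young leaf, under 48.8 to 87.4 in callus. GRXC3 was higher in shoot, at 1.39, 0.569 and 1.35, than in root and young leaf (log2 2.81 against young leaf, SE 0.29, adjusted p = 1.2e-08). LOC4326215 was higher in young leaf than in root, with 0.769 ± 0.111 in young leaf (SD, n = 4) against 0.170 ± 0.00694 in root (log2 -2.36, SE 0.26, adjusted p = 2.8e-08).

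The calls of OsLEA19 and LOC4344615 in root had 1 array apart. OsLEA19 was higher in root than in young leaf by 2.80 (SE 0.60, adjusted p = 0.00033), or 1.65 and still called without root replicate 2, and by 3.52 without root replicate 1. LOC4344615 stood at 1.48, 5.94 and 1.89 in root and was higher there than in young leaf by 3.61 (SE 0.35, adjusted p = 4.3e-09), or 3.02 without root replicate 2.

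Of 18 gene lists matched by name, 5 held members, and these were 9 probe sets in all. Besides the seed list they were SAUR39 among 74 auxin probe sets, OsSWEET1b among 43 of sugar and starch, OC-IV among 11 proteinase inhibitors and LTP-2 among 7 lipid transfer proteins. The sugar and starch names took in alpha-amylase genes, which the rule had left out and which could not be members. AMY1.4, AMY1.1, AMY1.3 and AMY1.2 scored 7.81, 5.52, 4.92 and 2.26, above the last member. The lists of class III peroxidases, glutathione S-transferases, pathogenesis-related proteins and chitinases, cytokinin genes, low-oxygen enzymes, DNA replication, mitosis, germin-like proteins, expansins, diterpenoid phytoalexins, mineral transport, and leaf and root markers held 0. DNA replication came nearest, with 15 of its 27 probe sets scoring above 0 and a median score of 0.06, against -0.71 over all probe sets. The class III peroxidase list matched just 3 probe sets of 2 genes. These matches rest on names, which only 22 of the 131 member genes carry.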

How the data were processed

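The authors' deposited table holds 1 linear intensity value per probe set and array, scaled so that the 75th percentile of each array is 1. The submitters' processing notes name GCOS 1.3. Background, summary and detection steps are not given in the sources used here. Per the labels, 500 ng of total RNA was labelled for each array. Precision is limited by the number of arrays.

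The rule used group means of log2 values after a pseudocount of 0.0274, about 10% of the overall median. For tests the log2 values were quantile normalized, because array medians ran from 0.220 to 0.355. A linear model of the 8 group means was fitted to all 25 arrays in limma 3.58.1 under R 4.3.3, with 17 residual and 5.40 prior degrees of freedom. It covered the 37212 probe sets that exceeded their array's median in 3 or more arrays. Benjamini-Hochberg adjustment ran over all of them in each comparison. Alternatives were a larger pseudocount, no filter, no quantile normalization, the adjusted p alone, the replicate number as a block, and arrays left out. Tested on simulated data for 8 days against growing callus with 37212 probe sets, the fit recovered 94% of changes of 1.5 and 100% of changes of 3 on the log2 scale. It made 2 false calls. The simulated noise was normal and independent, with 1 SD per probe set for all groups. It held no arrays that stood apart for many probe sets, so these rates do not cover members with such arrays. A log2 change against a level near the floor depends on the pseudocount.

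The members and lists were chosen with earlier results of these data known. Members to name were those whose gene has a name, the first 10 ranks and neighbouring genes. Up to 5 rises and 5 falls per comparison without overlapping arrays, and 5 on each side of the last rank, were also eligible. Not all of the latter are described, so the large changes shown are a selection. LOC4343482 and LOC4352184 are named outside this scheme, as parts of a count. Names are RefSeq symbols or synonyms, synonyms being added because nearly all symbols are locus numbers. All 131 genes were placed in the RefSeq table. A planned search for promoter motifs was not run, and a list of stem cell and embryo regulators was dropped because its pattern matched unrelated names.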

Additional observations from a re-analysis of the deposited data

Results flagged for a closer look

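Young leaf, the group of 4 arrays, was searched for arrays far from the rest in 31 members, and chance flags about 1 in 20. In 4 of them replicate 1 was high. This array also stood apart outside the members, above 2 times all other young leaf arrays for 1.3% of all probe sets tested. For replicate 4, the next highest, that share was 0.116%. It stood at 0.254 for the probe set of rank 2, which was given several genes, where the other young leaf arrays ran from 0.153 to 0.163. It stood at 0.138 for LOC4344619, against 0.0933 to 0.0990. It stood at 0.318 for LOC4324064, against 0.146 to 0.165. It stood at 0.490 for OsSAG12, the cysteine protease gene, against 0.302 to 0.310. All 4 values lie far below the callus levels of the same probe sets. Those other than OsSAG12 do not pass the range of array medians, 0.220 to 0.355.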

How the results depend on the processing

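Without growing callus replicate 3 the 2 day counts turned from 22 higher and 11 lower to 6 and 9, and without 8 day replicate 1 the counts per day turned from 16 rises and 26 falls to 14 and 13. With the adjusted p alone, the lower counts were 18, 19 and 29 at 2, 4 and 6 days and 42 per day. The same setting gave 52 higher and 16 lower for root against young leaf, 12 lower for shoot against young leaf, and 27 higher and 39 lower for root against shoot. The larger pseudocount, 50% of the median, gave 4 lower for shoot against young leaf and 11 higher for root against shoot. With each array left out in turn, members higher numbered 6 to 38, 21 to 58, 26 to 58 and 39 to 60 at 2, 4, 6 and 8 days, and members lower 7 to 12, 8 to 14, 15 to 22 and 27 to 41. Falls per day numbered 13 to 37 and rises 12 to 23. For the seed list at 8 days 3 to 7 were higher and 0 to 1 lower. The cause was not tested, except that the adjusted p alone drops the fold minimum. Shares over all probe sets tested were not counted under these changed settings, so these counts have no background beside them.

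The labels do not say that a replicate number marks a shared culture or day, and same-numbered arrays of different groups had deviations correlated from -0.277 to 0.390 (median 0.0139, 84 pairs). Other pairs ran from -0.359 to 0.352 (median -0.00108, 189 pairs), and 13 of 25 arrays correlated best with an array of their own number. How many arrays would do so by chance was not worked out, and a partial sharing was not tested further. As the labels give no pairing, the numbers were not used as pairs. With the replicate number as a block, 20, 50, 48 and 56 members were higher at 2, 4, 6 and 8 days, all within 1.5 times the counts without it. Of 205 called differences of the members named, 3 lost their call with the block, 15 with the larger pseudocount, 7 without the filter and 13 without quantile normalization. Without the 3 arrays of excess poly(A) controls 21 lost it, and 71 did when 1 array or another was left out. None (0) turned direction under these alternatives.

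The membership itself shared 193 of 200 with a scoring on quantile-normalized values, 189 with the larger pseudocount, 193 without the excess poly(A) arrays and 187 to 200 without single arrays. Scoring by the lowest callus array and highest organ array shared 164. Signals near the array floor limit what can be said of organ levels.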
